A study of Mus musculus with 8 samples.

Results

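The transcriptional co-activator p300 was mapped by ChIP-seq in C2C12 myoblasts that had been differentiated for 24 h without (control) or with 50 nM bexarotene, and its binding is described here gene by gene. Each called p300 peak was given to the protein-coding gene whose transcription start site (TSS) lay nearest to the peak centre, and a peak counted for that gene when the centre was within 50 kb of the TSS. A gene that had peaks in both lists is called kept, a gene with control peaks alone lost, and a gene with bexarotene peaks alone gained. The control list held 22051 peaks and the bexarotene list 9154, which together make 31205 of the 43759 peaks in the 4 peak lists of the series. Of 22232 protein-coding genes, 6653 had a p300 peak in at least 1 of the lists.

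C2C12 is an established mouse myoblast line of C3H origin, here taken from growth medium to low-serum differentiation medium, which the control and bexarotene cells both received. Bexarotene was added when differentiation began. The series comprises 8 samples, of which p300 control, p300 bexarotene and the matching myogenin pair carry a peak list. The p300 libraries were made with the same antibody, 1 per condition, so the difference between them has no replicate check and no test of condition was made. The intervals given with percentages are 95% Wilson intervals, which cover counting error over genes or peaks and not the spread between cultures. The lists give positions without read counts, so the depth of each library is unknown, and a shorter list from less binding and one from a library of lower yield cannot be told apart.

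p300 is a histone acetyltransferase that is brought to enhancers and promoters by DNA-bound factors, and it is required for skeletal myogenesis. In differentiating myoblasts it works with the basic helix-loop-helix factors MyoD and myogenin, which bind the E-box. Bexarotene is a selective agonist of the retinoid X receptor (RXR), a nuclear receptor that binds DNA as a dimer with itself, with retinoic acid receptors or with other partners, and that calls in co-activators once a ligand is bound. The comparison asks which genes keep, lose or gain nearby p300 when this receptor is activated during differentiation.

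The following sequences are single sites of genes from the 3 classes, chosen for their genes and not as typical of a class, and all of them lie beyond promoters. Each is 200 bases centred on a p300 peak, read from the forward strand of mm9, 5′ to 3′. The first 4 belong to peaks of kept genes that were called in both lists, the next pair to lost genes, and the last 3 to gained genes. Capitals mark the short sequences searched for, on either strand: the E-boxes CAGCTG and CACCTG, the AP-1 sites TGAGTCA and TGACTCA, the Runx core TGTGGT, the Tead site GGAATG, the GC box GGGCGG and the CRE palindrome TGACGTCA.
Myod1, chr7:53608506-53608705: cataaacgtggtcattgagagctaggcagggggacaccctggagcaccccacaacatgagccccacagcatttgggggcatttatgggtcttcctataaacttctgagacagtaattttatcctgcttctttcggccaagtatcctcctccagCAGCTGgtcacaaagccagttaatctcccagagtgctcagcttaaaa
Gm7325, chr17:45753353-45753552: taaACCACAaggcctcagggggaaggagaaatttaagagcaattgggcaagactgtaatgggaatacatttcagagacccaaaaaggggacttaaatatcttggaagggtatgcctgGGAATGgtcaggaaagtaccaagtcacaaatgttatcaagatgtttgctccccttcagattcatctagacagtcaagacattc
Cyr61, chr3:145348131-145348330: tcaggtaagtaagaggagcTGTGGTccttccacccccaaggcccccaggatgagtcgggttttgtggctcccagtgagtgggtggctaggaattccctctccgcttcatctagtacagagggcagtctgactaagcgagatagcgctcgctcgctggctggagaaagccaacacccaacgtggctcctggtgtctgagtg
Angptl4, chr17:33916468-33916667: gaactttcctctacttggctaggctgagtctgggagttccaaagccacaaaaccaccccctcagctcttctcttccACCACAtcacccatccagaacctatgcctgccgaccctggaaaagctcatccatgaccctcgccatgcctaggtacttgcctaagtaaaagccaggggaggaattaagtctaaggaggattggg
Cd44, chr2:102785289-102785488: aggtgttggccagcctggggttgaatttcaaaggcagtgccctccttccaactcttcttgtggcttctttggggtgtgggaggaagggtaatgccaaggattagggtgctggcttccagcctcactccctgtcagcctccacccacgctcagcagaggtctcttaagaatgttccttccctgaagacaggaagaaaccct
Tmem8c, chr2:26914049-26914248: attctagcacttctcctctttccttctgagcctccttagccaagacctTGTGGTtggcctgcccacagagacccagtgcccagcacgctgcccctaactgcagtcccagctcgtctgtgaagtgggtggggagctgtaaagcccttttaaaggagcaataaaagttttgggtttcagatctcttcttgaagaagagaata
Adora1, chr1:136141926-136142125: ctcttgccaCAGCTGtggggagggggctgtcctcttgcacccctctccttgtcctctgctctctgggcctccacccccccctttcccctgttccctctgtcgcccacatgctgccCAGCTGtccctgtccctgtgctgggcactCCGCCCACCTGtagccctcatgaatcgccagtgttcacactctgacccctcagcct
Tead4, chr6:128215253-128215452: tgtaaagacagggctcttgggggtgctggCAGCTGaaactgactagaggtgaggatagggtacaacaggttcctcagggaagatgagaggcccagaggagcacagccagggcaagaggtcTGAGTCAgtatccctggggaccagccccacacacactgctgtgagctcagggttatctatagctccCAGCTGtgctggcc
Abca1, chr4:53134820-53135019: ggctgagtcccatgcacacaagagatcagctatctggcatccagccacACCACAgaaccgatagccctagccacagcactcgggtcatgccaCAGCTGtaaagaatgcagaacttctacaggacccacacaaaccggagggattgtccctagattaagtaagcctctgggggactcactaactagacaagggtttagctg

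The Myod1 site lay 23.2 kb upstream of the gene for this myogenic determination factor, between genes, and held 1 CAGCTG E-box. The site of Gm7325, the gene for the fusion protein Myomixer, was 14.4 kb upstream and held a Runx core and a Tead site. Sites of Cyr61, a matricellular gene known as a target of Yap and Tead factors, and of Angptl4, a lipase inhibitor gene regulated by PPAR-RXR dimers, each held a Runx core. Those sites were 35.3 kb upstream of Cyr61 and in intron 3 of Angptl4. The intergenic site of Cd44, the hyaluronan receptor gene, had none of the motifs, and that of Tmem8c, the gene for the fusion protein Myomaker, had a Runx core. The site gained at Adora1, an adenosine receptor gene, was intergenic, 10.0 kb upstream, and held 2 CAGCTG E-boxes, 1 CACCTG E-box and a GC box. The site gained in intron 2 of Tead4, a transcription factor of the Hippo pathway, held 2 CAGCTG E-boxes and an AP-1 site. The site gained in intron 5 of Abca1, a cholesterol transporter gene that LXR-RXR dimers regulate, held 1 CAGCTG E-box and a Runx core. These are matches of letters and not measured contacts of any factor.

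The label of the cells was checked against markers. Of 10 myoblast and myotube markers, 7 had a p300 peak assigned to them, all of them kept, while 0 of 6 hepatocyte markers and 0 of 6 blood markers had a peak. Over all protein-coding genes 29.9% had a p300 peak, and 50.6% of the genes with a control peak were kept. Of 6 neuron markers 1 had p300, Snap25, with 1 peak in each list. Among the myoblast markers the gene for desmin, Des, had 2 control peaks and 1 bexarotene peak, the cadherin gene Cdh15 had 2 and 2, and the cardiac actin gene Actc1 had 2 and 3. Myog, Myf5 and Ckm had no p300 peak assigned to them in either list, although 1 control and 2 bexarotene peaks that lay nearer to another gene were within 50 kb of the Myog TSS.

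Within 50 kb nearly as many genes were lost as kept, and few were gained. Of the 6653 genes with p300, 3146 were kept (47.3%), 3070 were lost (46.1%) and 437 were gained (6.57%). Over all 22232 protein-coding genes the shares were 14.2% kept, 13.8% lost and 1.97% gained, and 70.1% had no peak. Of the 6216 genes with a control peak 49.4% were lost, and of the 3583 genes with a bexarotene peak 12.2% were gained. Counting peaks rather than genes, 4916 genes (73.9%) had fewer bexarotene than control peaks, 1176 (17.7%) had equal numbers and 561 (8.43%) had more.

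The split depended on which peaks were compared. When the control list was reduced to its 9154 longest intervals, the length of the bexarotene list, 2316 genes were kept, 838 lost and 1267 gained, so that gained genes outnumbered lost genes. This setting changed both the number and the width of the control peaks, so the move cannot be put down to either one. With the smallest intervals left out of both lists 1831 genes were kept, 2670 lost and 182 gained. For comparison, 32.7% of control peaks overlapped a bexarotene peak by at least 1 bp, and 79.7% of bexarotene peaks overlapped a control peak. The 50 kb limit fell where peaks were evenly spread: 582 control peaks lay 45 to 50 kb from a TSS and 520 lay 50 to 55 kb away, against 226 and 222 bexarotene peaks. The last control peak inside belonged to D4Bwg0951e at 49989 bp and the first outside to Tm4sf4 at 50021 bp.

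**Figure D1:**
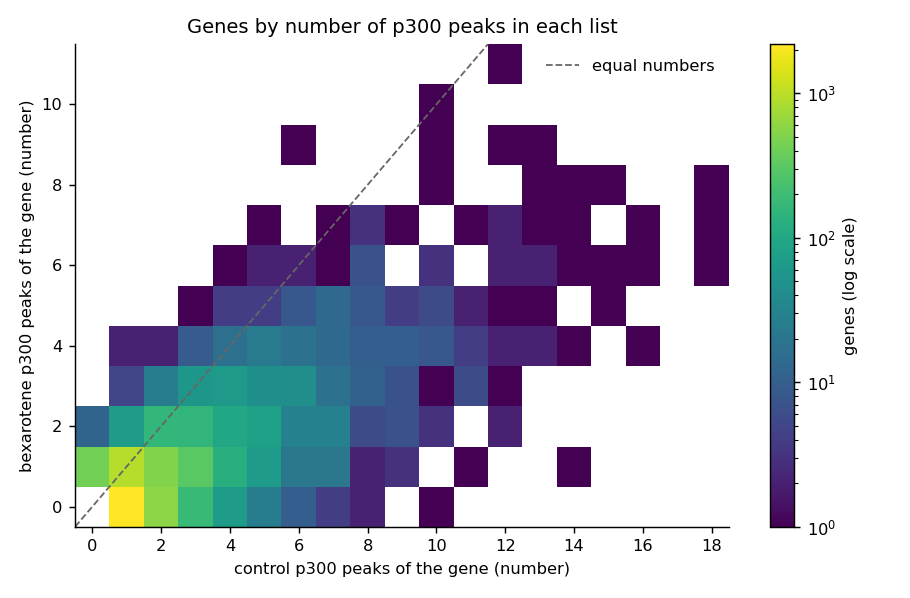
Number of genes (colour, log scale) for each number of control p300 peaks (horizontal axis) and bexarotene p300 peaks (vertical axis) within 50 kb, for the 6653 genes with at least 1 peak; the dashed line marks equal numbers. Most genes lie below the line, 4916 against 561 above it.

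Kept genes had more control peaks than lost genes. They averaged 2.97 control peaks per gene (SD 2.33 over 3146 genes) and 1.66 bexarotene peaks (SD 1.15), while lost genes averaged 1.44 control peaks (SD 0.868 over 3070 genes) and gained genes 1.03 bexarotene peaks (SD 0.164 over 437 genes). A single control peak was all that 2197 lost genes had (71.6%), against 1007 of the kept genes (32.0%). Genes with 10 or more peaks numbered 73 in control and 2 with bexarotene, and genes with 5 or more 644 and 102. Among kept genes 1846 (58.7%) had fewer bexarotene than control peaks, 1176 (37.4%) had equal numbers and 124 (3.94%) had more.

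The share of genes kept was higher at genes with more control peaks, and the share of single control peaks overlapped differed less. Of the 3204 genes with 1 control peak 31.4% (29.8 to 33.1) were kept, compared with 54.4% (51.7 to 57.1) of those with 2, 74.9% (71.5 to 77.9) with 3 and 89.8% (85.4 to 92.9) with 5. At 10 or more control peaks 72 of 73 genes were kept, and the exception was Cd44. The share of single control peaks overlapped by a bexarotene peak ranged over the same genes from 26.2% (24.7 to 27.8) at 1 peak to 38.5% (33.8 to 43.4) at 8 peaks, and was 34.1% (31.7 to 36.5) at 4 and 35.0% (31.9 to 38.2) at 10 or more. At 9 control peaks it was 29.9% (24.9 to 35.4). Genes with more peaks also had more room. The territory of a gene, the stretch within 50 kb of its TSSs that lies nearest to it, had a median of 55.0 kb for genes with 1 control peak and 182 kb for those with 10 or more. By class the median territory was 73.9 kb for kept, 58.8 kb for lost, 47.7 kb for gained and 36.8 kb for genes without p300.

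**Figure D2:**
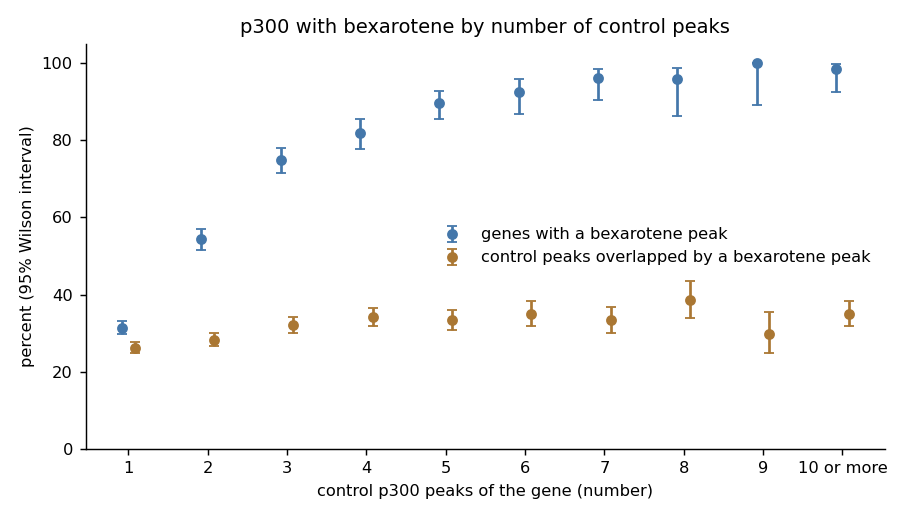
Percent of genes that have a bexarotene peak (blue) and percent of control peaks that overlap a bexarotene peak (brown), by the number of control p300 peaks of the gene; bars are 95% Wilson intervals. The share of genes kept went from 31.4% to 98.6% while the share of peaks overlapped ranged from 26.2% to 38.5%.

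Most kept genes had at least 1 place with a peak in both lists, but most of their control peaks had no counterpart. Of the control peaks of kept genes 45.5% were overlapped by a bexarotene peak, beside 32.7% of all control peaks. Of their bexarotene peaks 81.9% overlapped a control peak, beside 79.7% of all bexarotene peaks. The classes set part of both contrasts, since kept genes have peaks in both lists by definition. Of the control peaks of lost genes 6 of 4416 were overlapped, and of the bexarotene peaks of gained genes 6 of 449. In 2837 of the 3146 kept genes (90.2%) a control and a bexarotene interval overlapped, and in the remaining 309 the closest pair of centres was a median of 3853 bp apart, with 90 of these genes within 1 kb. The control intervals of kept genes that a bexarotene peak overlapped had a median length of 321 bp, those not overlapped 199 bp, and control intervals of lost genes 159 bp, the smallest in the list. Intervals of the smallest size made up 31.0% of control peaks of kept genes and 51.8% of control peaks of lost genes. In the bexarotene list they made up 50.3% of the peaks of kept genes and 80.6% of those of gained genes. The class of a gene also depends on its neighbours, since 669 lost genes (21.8%) had a bexarotene peak within 50 kb that lay nearer to another gene, and 165 gained genes (37.8%) had such a control peak.

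The 10 genes with the largest fall in the number of peaks had between 10 and 13 fewer with bexarotene. Phldb2, which codes for a protein that anchors microtubules at the cell cortex, went from 14 control peaks to 1, of which 1 overlapped. Smad3, the signal transducer of TGF-beta, had 18 control and 6 bexarotene peaks, and 5 of the control peaks were overlapped. Nedd9, a focal adhesion scaffold, had 16 and 4, Met, the receptor of hepatocyte growth factor, 14 and 4, and Sept9, a septin, 16 and 6. The transcriptional repressor gene Zbtb20 had 18 and 7, the phosphodiesterase gene Pde4d 18 and 8, the phospholipase gene Plcb4 15 and 5, Gtdc1 11 and 1, and the splicing regulator gene Rbfox2 12 and 2. All 10 were still kept genes, but a fall of 10 was also seen at Cd44, a lost gene, and at Ets1 (12 and 2), left out only by summed interval length. With the starts of all annotated transcripts the 1 bexarotene peak of Phldb2 lay nearest to Gm15640. All 10 falls were smaller with the control list cut to equal length. Phldb2 then had 9 and 1, Nedd9 9 and 4, Met 9 and 4, Smad3 10 and 6, Gtdc1 5 and 1, Rbfox2 5 and 2 and Plcb4 6 and 5, while Zbtb20 had 7 and 7, Sept9 6 and 6 and Pde4d 6 and 8. Promoter peaks, within 1 kb of a TSS, were called in control at 8 of these 10 genes and with bexarotene at 1, Smad3. The 10 genes were picked by their fall in peaks, so fewer promoter peaks follow in part from the choice. Over all genes with a control promoter peak, 632 of 2192 (28.8%) had a bexarotene promoter peak.

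Of the 10 genes with most bexarotene peaks 8 had more control peaks than bexarotene peaks. Pde4d (18 and 8) tied with the last of them and was left out only by summed interval length. Pip4k2a, a phosphoinositide kinase gene, had 12 control and 11 bexarotene peaks, with 10 of the control peaks overlapped. Myo10, an unconventional myosin of filopodia that takes part in muscle fusion, had 10 and 10, with 6 overlapped, and also carried 9 myogenin peaks in each condition. Nfib, a transcription factor gene, had 13 and 9, the collagen IV gene Col4a2 14 and 8, the growth hormone receptor gene Ghr 10 and 8, and the focal adhesion gene Tns3 15 and 8. On chromosome 8 the phosphatase gene Inpp4b had 6 and 9 with 2 overlapped, and the zinc finger gene Zfp827 had 10 and 9 with 3 overlapped. For several of these genes the rule of the nearest protein-coding TSS passed over nearer starts of other transcripts. For Nfib 3 control and 3 bexarotene peaks lay nearest to Nfib itself once all annotated transcripts were used, and the rest to Gm11266, Gm11267 and Gm11269. Col4a2, Inpp4b and Ghr had 1 or 2 such peaks in a list. Tubd1 had 12 control and 9 bexarotene peaks, and of these 8 and 5 lay nearest to the start of Mir21, the gene for the microRNA miR-21, and 4 and 4 to a transcript of Vmp1. Frmd8 had 13 and 8, and of these 9 and 8 lay nearest to Neat1, the long non-coding RNA of nuclear paraspeckles. With the control list cut to equal length, Tns3 (10 and 8) alone of the 10 had more control than bexarotene peaks. Nfib and Col4a2 had equal numbers and the other genes fewer in control, among them Myo10 with 7 and 10 and Inpp4b with 1 and 9.

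Among lost genes Cd44 had the most control peaks, 10, none of which had a bexarotene counterpart. They lay in intron 1, at 27.9 kb, 5.84 kb and 0.156 kb from the TSS, and between 15.2 kb and 47.0 kb upstream. The collagen gene Col14a1 lost 8, the cyclin gene Ccnl1 8, the nucleotide metabolism gene Dut 7, the focal adhesion gene Tns1 7, the endocytic scaffold gene Itsn1 7 and Kbtbd11 7. The adaptor gene Fyb, the chemokine gene Ccl2 and Gm6843 lost 6 each. With the starts of all annotated transcripts 1 of the 7 peaks of Dut still lay nearest to it, and 4 of the 7 of Kbtbd11 lay nearer to a transcript of Arhgef10. Counting also the peaks that lay nearer to another gene, Kbtbd11 had 7 control peaks and 1 bexarotene peak within 50 kb, and so was no longer lost. With the control list cut to equal length all 10 genes were still lost, with Cd44 at 4 control peaks, Col14a1 at 2, Ccnl1 at 1, Dut at 3, Tns1 at 2, Itsn1 at 2, Kbtbd11 at 1, Fyb at 3, Ccl2 at 5 and Gm6843 at 2. A myogenin peak lay near Col14a1, Tns1, Itsn1, Kbtbd11, Fyb, Ccl2 and Gm6843 in at least 1 condition, and near Cd44, Ccnl1 and Dut in neither.

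Gained genes had 1 bexarotene peak in 425 of 437 cases (97.3%) and 2 in the other 12. Those named by the rule with 2 peaks each were Vapa, Tmem184b, Tmem170b, Colec10, Fndc5, Gga1, Gm16503, Hprt, Micall1 and Poldip3. With the starts of all annotated transcripts both peaks of Poldip3 and both of Gm16503 lay nearer to other genes. Control peaks assigned to other genes also lay within 50 kb of Gga1 (8), Gm16503 (7), Poldip3 (2), Vapa (2) and Micall1 (1). Fndc5, whose product is cleaved to the myokine irisin, gained peaks 7.84 kb and 9.06 kb downstream of its TSS, the second of them over a myogenin peak. At Vapa, a membrane protein of the endoplasmic reticulum, both peaks were at the promoter. Adora1 had 0 control peaks and 1 bexarotene peak, at chr1:136141899-136142153, which overlapped a myogenin peak. Its neighbours Mybph, a myosin-binding protein gene, and Myog, the gene for myogenin itself, had no p300 peak nearest to them in either list, while myogenin peaks were assigned to Mybph in control (1) and with bexarotene (2) and to Myog (1 and 1).

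In all, 25 genes, gained genes included, had at least 2 more bexarotene than control peaks. The largest difference was 3, for Dnaic1 with 1 and 4 peaks, for the chaperone gene Dnaja2 with 1 and 4 and for Inpp4b. Acta2, the smooth muscle actin gene that myoblasts also express, had 5 control and 7 bexarotene peaks. Of its bexarotene peaks 4 had no control counterpart, among them peaks of 201 and 336 bp in intron 1. Nfkbia, the inhibitor of NF-kappaB, had 4 and 6. Of the 25 genes 7 lay on chromosome 15, 5 on chromosome 4 and 4 on chromosome 8. The genes Gga1, Micall1, Tmem184b and Sun2 fell in a segment from 78.7 to 79.6 Mb of chromosome 15, chosen after these genes were seen, which held 12 control and 15 bexarotene peaks. Of its 30 genes 6 were kept, 4 lost and 5 gained, and the gained genes include the 4 around which it was drawn, so its counts cannot be set against the 1.97% gained over all genes. A segment of chromosome 8 from 81.5 to 84.7 Mb, chosen likewise, ran from Zfp827 to Inpp4b and held 61 control and 47 bexarotene peaks. Of those bexarotene peaks 14 overlapped a control peak, which is no comparison with the rest, since the genes around which the segment was drawn were seen to have few overlapped peaks. By chromosome the share of p300 genes that were lost ranged from 37.4% on chromosome 15 to 55.7% on chromosome 11.

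The distance of peaks from the TSS differed between the classes. The classes also differed in room, with a median territory of 73.9 kb for kept, 58.8 kb for lost and 47.7 kb for gained genes. How far this sets the distances was not tested. Of the bexarotene peaks of gained genes 64.1% (59.6 to 68.4) were within 1 kb of a TSS, at a median distance of 171 bp over all of them, whereas 16.1% (15.1 to 17.1) of the bexarotene peaks of kept genes were. Of the control peaks of lost genes 26.2% were at a promoter, against 13.6% (12.9 to 14.3) of the control peaks of kept genes. Taken gene by gene, of 2192 genes with a control promoter peak 632 (28.8%) had a bexarotene promoter peak. Conversely, 450 of the 1082 genes with a bexarotene promoter peak (41.6%) had none in control, and 164 of those had control p300 elsewhere within 50 kb, so they count as kept.

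**Figure D3:**
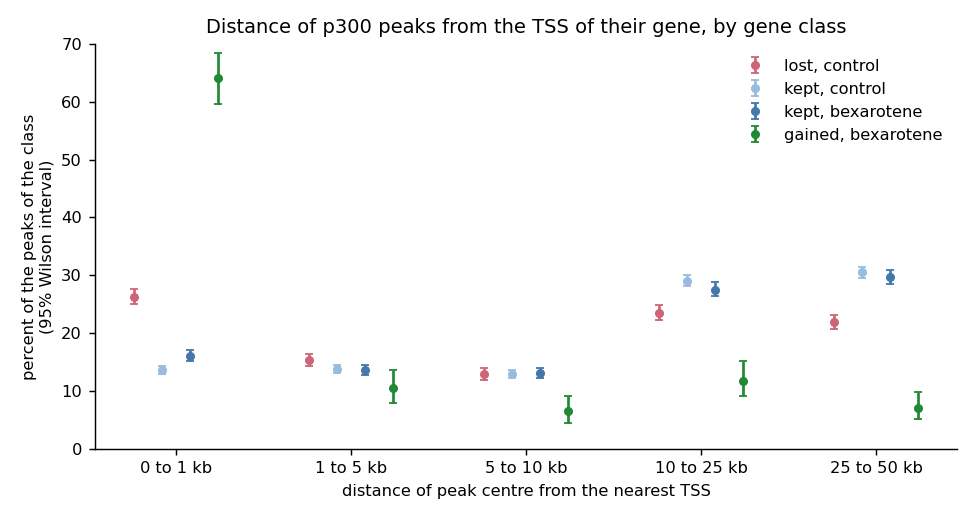
Distance of p300 peak centres from the nearest TSS, as percent of the peaks of each class, with 95% Wilson intervals; red, control peaks of lost genes; light and dark blue, control and bexarotene peaks of kept genes; green, bexarotene peaks of gained genes. The peaks of gained genes stand apart in the bin from 0 to 1 kb, at 64.1%.

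Myogenin, which the classes do not use, was found most often near kept genes. A myogenin peak in either list was assigned to 55.1% (53.4 to 56.9) of kept genes, 30.2% (28.6 to 31.9) of lost genes, 32.3% (28.1 to 36.8) of gained genes and 9.28% (8.83 to 9.74) of genes without p300. The order of kept above lost held among genes with equal numbers of control p300 peaks. With 1 control peak it was 42.7% (39.7 to 45.8) of kept and 26.3% (24.5 to 28.2) of lost genes, with 2 it was 49.8% and 37.2%, and with 3 it was 56.7% and 44.6%. Myogenin peaks were assigned by the same rule, so a larger territory can hold more of them. The median territory was 73.9 kb for kept, 58.8 kb for lost and 36.8 kb for genes without p300, and genes were not matched for it. A p300 peak that itself overlapped myogenin was present at 39.3% of kept, 11.1% of lost and 14.9% of gained genes. These shares also depend on the number of p300 peaks per gene, which was highest for kept genes. Counted by peak, 16.9% of control peaks of kept genes and 8.36% of those of lost genes overlapped myogenin. For bexarotene peaks it was 23.3% at kept and 14.7% at gained genes. Myogenin peaks called with bexarotene alone were about as frequent as those called in control alone at lost genes (8.86% and 8.66%), and were somewhat more frequent at kept genes (12.8% and 8.77%) and less frequent at gained genes (7.09% and 9.61%, with overlapping intervals). Myogenin and p300 were each measured in 1 library per condition and on different instruments and aligners.

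Sequence around the peak centres differed between lost and kept genes for some motifs and not for others. The CAGCTG E-box, the form MyoD and myogenin favour, was within 100 bp of the centre at 22.7% (21.5 to 24.0) of control peaks of lost genes, 28.3% (27.4 to 29.2) of control peaks of kept genes and 33.0% (31.8 to 34.3) of bexarotene peaks of kept genes. In 60307 windows of the same length placed 2 kb to either side of the peaks it was present in 8.59%. The other E-box, CACCTG, was at 9.81% of control peaks of lost genes, 9.57% of control and 11.5% of bexarotene peaks of kept genes and 12.7% of peaks of gained genes, beside 13.2% of flanking windows. At the distal peaks of gained genes alone CACCTG was at 19.9% (14.4 to 26.7). Control peaks of kept genes that bexarotene peaks overlapped had CAGCTG in 33.3% (31.9 to 34.7) and those not overlapped in 24.1% (23.0 to 25.3). In every class CAGCTG was more frequent beyond 1 kb of a TSS than at promoters. At peaks of gained genes the shares were 39.8% (32.5 to 47.5) and 11.1% (7.98 to 15.3). For bexarotene peaks of kept genes they were 36.0% (34.6 to 37.4) and 17.5%, and for their control peaks 30.2% and 16.1%. For control peaks of lost genes they were 25.2% and 15.8%. Of all 45974 protein-coding TSS windows 12.5% held it. The Adora1, Tead4 and Abca1 sites printed above are of the distal kind, which is the smaller part of the gained class, and over all its peaks 21.4% held CAGCTG.

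AP-1 sites, bound by Fos and Jun dimers, were common at distal peaks in all classes. Beyond 1 kb of a TSS they were found at 33.8% (32.2 to 35.4) of control peaks of lost genes, 29.0% (28.0 to 30.0) of control and 29.1% (27.8 to 30.5) of bexarotene peaks of kept genes, and 23.0% (17.2 to 30.1) of peaks of gained genes, with 3.43% of flanking windows. For the AP-1 site the order at distal peaks was thus opposite to that of the E-box, higher in lost than in kept genes, although over all peaks of the classes the shares were 26.9% and 26.4%. The Runx core TGTGGT was at 31.4%, 32.8%, 35.8% and 21.7% of the distal peaks in the same order of classes, against 14.8% of flanking windows. At promoters the GC box, a site of Sp1, was present in 59.4% (53.6 to 64.9) of peaks of gained genes, 51.5% (48.2 to 54.9) of bexarotene peaks of kept genes, 49.0% (46.1 to 51.9) of control peaks of lost genes and 45.7% (43.0 to 48.5) of control peaks of kept genes, and in 38.6% of all TSS windows. The CRE palindrome TGACGTCA was at 12 of 288 promoter peaks of gained genes (4.17%, 2.40 to 7.14), 17 of 844 bexarotene peaks of kept genes (2.01%, 1.26 to 3.20), 23 of 1159 of lost genes (1.98%), 17 of 1270 control peaks of kept genes (1.34%) and 1.64% of all TSS windows. For both motifs the intervals of gained and kept genes in the bexarotene list overlap. The Tead site GGAATG was at 19.8% and 19.4% of distal control peaks of lost and kept genes, 833 of 4393 distal bexarotene peaks of kept genes and 16.1% of those of gained genes, against 6627 of the 60307 flanking windows. Direct repeats of the nuclear receptor half-site with spacers of 1, 4 or 5 bases (DR1, DR4 and DR5) were rare in all sets. RXR dimers bind these repeats. At control peaks of kept genes they were found 6, 8 and 9 times in 9331, and at control peaks of lost genes 3, 0 and 2 times in 4416. At bexarotene peaks of kept genes they were found 5, 4 and 2 times in 5237, and at peaks of gained genes 2, 0 and 0 times in 449. The flanking windows held them in 0.133%, 0.0929% and 0.0663% of cases.

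**Figure D4:**
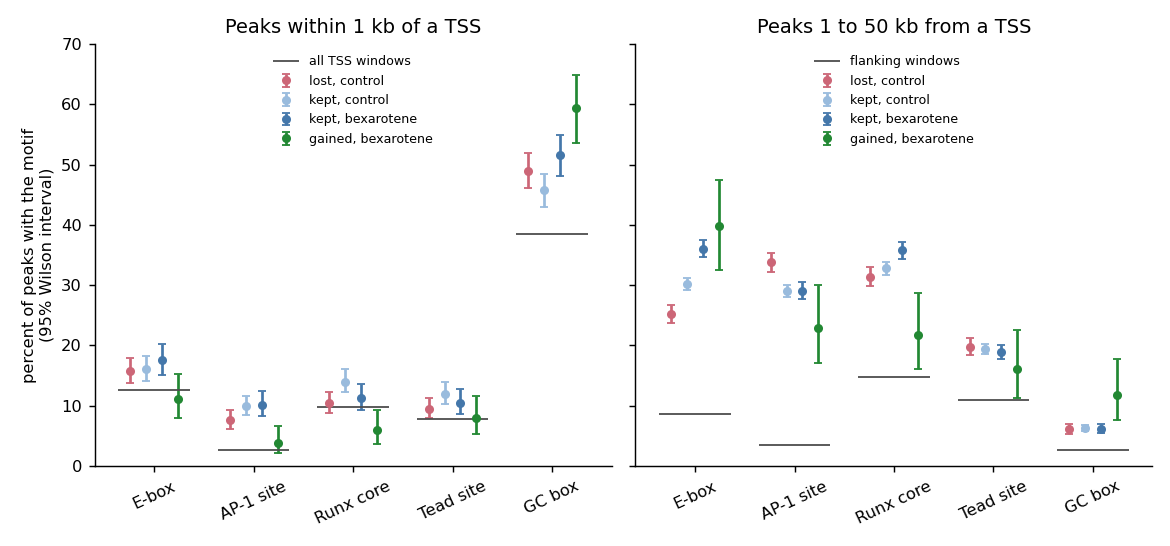
Percent of p300 peaks with a motif within 100 bp of the centre, by gene class, with 95% Wilson intervals, for peaks within 1 kb of a TSS (left) and from 1 to 50 kb (right); black lines give the share in all protein-coding TSS windows (left) and in flanking windows (right). The E-box at distal peaks went from 25.2% in lost to 39.8% in gained genes, and the GC box at promoters was highest in gained genes, 59.4%.

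Lists of muscle, receptor, matrix and housekeeping genes were then followed by class. The 22 lists held 377 genes, of which 157 were kept, 85 lost and 15 gained and 120 had no peak. Over all protein-coding genes 14.2% were kept, 13.8% lost and 1.97% gained, and these shares stand beside every list below. The list genes had 765 control and 353 bexarotene peaks, a ratio of 0.461, beside 0.414 over all genes. Of the list genes with a control peak 64.9% (58.7 to 70.6) were kept, beside 50.6% over all genes. The list genes with p300 had a median of 2 control peaks, beside 1 over all genes with p300. Genes with more control peaks were kept more often, and the list genes were not matched for this. These lists hold well-studied genes and were not drawn at random, and no list is called different from the rest. At a limit of 10 kb 108 list genes were kept and 82 lost, and the excess of kept over lost genes ended in 6 lists: fusion and adhesion (5 and 5), neuromuscular junction (3 and 3), TGF-beta (5 and 5), insulin-like growth factor (4 and 7), acetyltransferases (4 and 5) and the myogenic regulators (0 and 1, with 1 gained). The excitation and calcium list went the other way at 10 kb, from 4 kept and 5 lost to 4 and 1. With the control list cut to equal length the myogenic regulators had 1 kept and 2 gained genes. In that setting the excess of lost over kept genes ended in the lists of excitation and calcium (3 kept and 2 lost), muscle energy (2 and 0) and ribosomal proteins (3 and 1, with 6 gained).

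Of 6 myogenic regulator genes 3 were kept and the others had no peak assigned to them. Myod1 had 5 control and 3 bexarotene peaks, and all 3 bexarotene peaks overlapped control peaks, at 38.7, 34.8 and 23.2 kb upstream, the last pair over myogenin peaks. Pax3 had 2 and 1 and Pax7, the satellite cell factor, 1 and 1. Of the Mef2 and serum response factor genes, which act beside MyoD on muscle promoters, Mef2a had 5 and 2 peaks, Mkl1 8 and 3 and Srf 1 and 1, while Mef2d lost 3.

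Genes of myoblast fusion and adhesion had p300 in 12 of 18 cases (66.7%), beside 29.9% over all genes, with 10 kept and 2 lost. The genes of the fusion pair differed: Tmem8c (Myomaker) had 2 control peaks and 0 with bexarotene, and Gm7325 (Myomixer) had 2 and 1. Counting also the peaks that lay nearer to another gene, Gm7325 had 9 and 3 within 50 kb, and all of its assigned peaks were nearest to a U6 gene once all annotated transcripts were used. The Gm7325 peak present in both lists was 857 bp long in control and 719 bp with bexarotene and overlapped myogenin. The adhesion gene Ncam1 had 10 and 5, Vcam1 5 and 1, Cdh2 4 and 2, and the integrin gene Itgb1 2 and 2. At the neuromuscular junction Musk, the kinase that organises the synapse, had 6 and 2 peaks and the acetylcholine receptor gene Chrnd 4 and 2, with 5 of 12 genes kept and 3 lost.

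Contractile genes came next. Of 19 genes of myosins and myosin-binding proteins 13 had none, 3 were kept (15.8%, beside 14.2% over all genes) and 3 lost. Among the kept genes was the embryonic heavy chain gene Myh3 with 1 and 1. Of 12 troponin and tropomyosin genes 3 were kept and 4 lost, Tpm1 with 11 and 4, Tnnt2 with 2 and 1 and Tnni1 with 2 and 0. In the group of actin, Z-disc and giant proteins 11 of 30 were kept, 7 lost and 1, Actn3, gained. The titin gene Ttn had 1 and 1 and the nebulin gene Neb 1 and 0. Of the excitation and calcium genes 4 of 18 were kept, 5 lost and 1, Orai1, gained, with Cacng1, a calcium channel subunit, at 4 and 3 and Cacna1s at 2 and 0. The dystrophin complex and membrane repair list had 9 of 17 kept, 4 lost and 1, Ano5, gained, with Utrn, the dystrophin relative, at 6 and 5 and the caveolin gene Cav1 at 6 and 2. Of the muscle energy genes 2 of 15 were kept and 3 lost, and the myoglobin gene Mb had 2 and 2.

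Among the RXR, RAR and partner receptors 7 of 18 were kept and 5 lost. Rxra, the gene for RXR alpha, had 5 control peaks and 1 bexarotene peak, the latter 8.58 kb upstream over the longest control interval of the gene, of 572 bp. Rara had 7 and 4, Pparg 5 and 2, Vdr 2 and 2, and Ppara 3 and 0. Of 20 known RXR and retinoid target genes 9 were kept, 4 lost and 1 gained. The retinaldehyde reductase gene Dhrs3 lost all of 4 peaks and the retinoic acid hydroxylase gene Cyp26a1 lost 1, while Angptl4 had 3 and 3 with 2 of the control peaks overlapped. Tgm2, the transglutaminase induced by retinoids, had 6 and 2, and Abca1 had 0 and 1.

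The list with the largest share of kept genes, equal to that of the collagens, was that of Runx, Tead and Hippo genes, with 12 of 16 kept (75%), 1 lost and 1 gained. Over all genes 14.2% were kept. The genes of the list had 53 control and 34 bexarotene peaks, and 54.7% (41.5 to 67.3) of the control peaks were overlapped, beside 30.9% over all genes. That interval takes peaks as independent, though 1 gene can hold several. List genes with p300 had a median of 3.5 control peaks, beside 1 over all genes with p300, and genes with more control peaks were kept more often. Cyr61 had 5 and 5 peaks and each control peak was overlapped, Tead1 had 4 and 4, Ankrd1 3 and 3 and Runx1 12 and 6, and Tead4 was gained. Of the AP-1 factor genes 7 of 14 were kept and 3 lost, with Jun at 4 and 4, Fosl2 at 3 and 3 and Junb at 6 and 3. E-proteins and inhibitors had 10 of 18 kept, 5 lost and 1 gained. Tcf12, a dimer partner of MyoD, had 11 and 5, Hes1, a Notch target, 7 and 5 and Heyl 3 and 3, while the inhibitor genes Id1 and Id3 were lost and Id4 was gained.

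In the cell cycle exit list 5 of 15 genes were kept, 5 lost and 2 gained (13.3%). Cdkn1a, which codes for p21, had 3 and 3 and Cdkn1b 4 and 2, the pocket protein genes Rbl1 and Rbl2 lost 3 each, and Rb1 and E2f1 were gained with 1 each. In the TGF-beta, activin and myostatin list, 9 of 20 were kept, 4 lost and 1, Inhba, gained, with 55 control and 17 bexarotene peaks. This ratio of 0.309 was the lowest of all the lists, with Smad3 at 18 and 6, Ltbp1 at 7 and 1 and Smad7 at 6 and 1. Of the insulin-like growth factor genes 7 of 15 were kept and 6 lost, with Igfbp5, induced in differentiating myoblasts, at 2 and 2 and Irs1 at 3 and 0.

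The lists of matrix and adhesion genes held the most control peaks. Of 20 collagen and matrix genes 15 were kept, 4 lost and 1 had no peak, with 96 control and 47 bexarotene peaks. Col6a2 had 12 and 5, Thbs1 8 and 6 and Lox, the collagen crosslinking enzyme, 4 and 5, while Col5a2 and Timp3 lost 3 each. Of 20 focal adhesion and actin cytoskeleton genes 12 were kept, 3 lost and 1, Flna, gained, with 95 and 44 peaks. Tln2, a talin, had 7 and 7, Myh9, a non-muscle myosin, 13 and 7 and Cald1 13 and 4, while Actn4 lost 5 and Tns1 lost 7.

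Among acetyltransferases and deacetylases 5 of 17 were kept, 4 lost and 1 gained. Ep300, the gene for p300 itself, had 2 control peaks and 0 bexarotene peaks, and the class IIa deacetylase gene Hdac4 had 9 and 4. Of 30 ribosomal protein genes 5 were kept, 9 lost and 4 gained, the same gained share as in the cell cycle exit list. Over all genes 14.2% were kept, 13.8% lost and 1.97% gained. The gained genes were Rpl5, Rpl6, Rpl11 and Rps3, each with 1 bexarotene peak within 1 kb of its TSS, at 0.015, 0.101, 0.099 and 0.101 kb. Of these peaks 3 had the smallest length in the list, 158 bp, and the Rpl11 peak was 204 bp long.

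**Figure D5:**
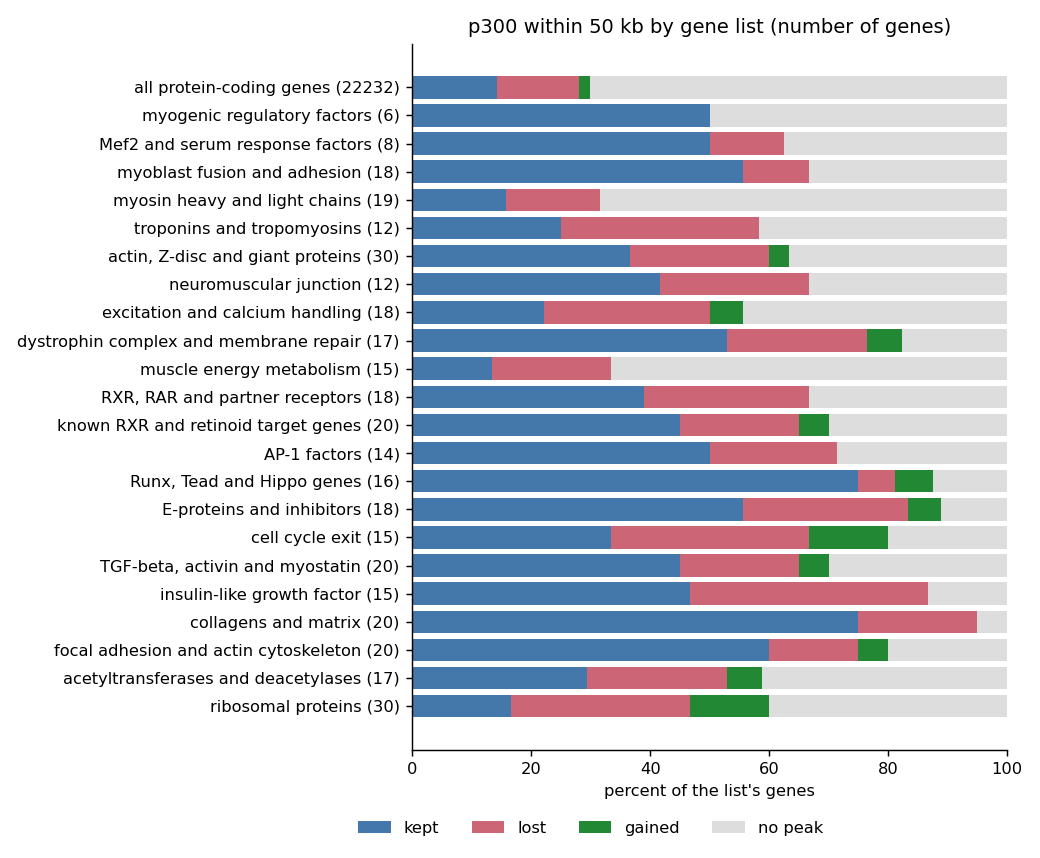
Percent of the genes of each list that kept (blue), lost (red) or gained (green) p300 within 50 kb or had no peak (grey), with all 22232 protein-coding genes on the top line; the number of genes is given in parentheses. Kept genes made up 75% of the Runx, Tead and Hippo list and 13.3% of the muscle energy list, beside 14.2% of all genes.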

How the data were processed

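Peak lists were analysed for p300 in differentiated C2C12 cells, control and bexarotene, with the matching myogenin lists, 1 library each. Per the study's methods and the submitters' processing notes, the authors used Bowtie for p300 alignment to mm9, Picard to discard duplicate reads and HOMER to call peaks in each library. The lists as deposited hold chromosome, start and end in base pairs (another unit than counts, with no score), so that depth is unknown. Input and H3K27me3 samples were not analysed here. Starts were printed 1-based.

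The centre of each interval went to the closest TSS among 51723 protein-coding transcript starts (45975 distinct positions, GENCODE vM1 on NCBIM37, which is mm9), with genes by symbol. Motifs were counted within 100 bp of the centre, on both strands. Scripts used Python 3.11.15, pandas 2.3.3 and pysam 0.24.0 and recovered all known answers in 7 simulated steps of 400 items. No test was made, since each condition had 1 library.

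Named genes were the 10 with the largest fall in the number of peaks, the 10 with most bexarotene peaks, the 10 lost and the 10 gained genes with most peaks (ties by summed interval length, then symbol), list members, and Mybph, Gm7325, Myog, Myod1 and Adora1. The genes, the lists and the rules were chosen with earlier results of these data known. Alternatives covered the TSS catalogue, the distance limit, the assignment, the interval length, the list length, clustering, the motif window and the gene identifier.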

Additional observations from a re-analysis of the deposited data

How the results depend on the processing

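No paired analysis was possible because each condition had 1 library. The counts of 3146 kept, 3070 lost and 437 gained genes stayed within 1.5 times with the starts of all annotated transcripts, a limit of 100 kb, no limit, chromosomes 1 to 19 and X alone, and genes counted by Ensembl identifier, the last chosen after seeing the data. At a limit of 10 kb 1629 genes were kept and 2464 lost, and at 1 kb 632 were kept and 1560 lost, so that lost genes outnumbered kept genes. With the starts of all annotated transcripts lost genes (3803) also outnumbered kept genes (3688), by little. With every gene that had a TSS within 50 kb of a peak, 6034 were kept, 4723 lost and 701 gained. With peaks longer than the smallest interval 1831 were kept, 2670 lost and 182 gained. With the control list reduced to its longest intervals 838 were lost and 1267 gained, and of the list genes 26 were lost and 50 gained, in a setting that changed the number and the width of control peaks together. In that setting the sign of the difference in peaks turned for Pde4d (2 more with bexarotene), Pip4k2a (2), Tubd1 (1), Zfp827 (5), Ghr (4) and Frmd8 (6), and the difference of Zbtb20, Sept9, Nfib, Col4a2, Gm7325 and Myod1 became 0. With every gene within 50 kb it turned for Gga1 (-1), became 0 for Poldip3 and grew to -6 for Gm7325. Clusters of intervals within 1 kb numbered 12648 in control and 5420 with bexarotene. The shares of genes with myogenin were 39.3%, 11.1% and 14.9% for kept, lost and gained genes when myogenin had to overlap p300. In windows of 50 bp to each side the motif shares were lower, by the smaller window: for control peaks of lost and kept genes and bexarotene peaks of kept and gained genes they were 13.6%, 17.3%, 21.4% and 14.7% for CAGCTG, 18.0%, 17.6%, 17.6% and 6.24% for the AP-1 site, and 9.92%, 7.22%, 8.67% and 29.4% for the GC box. Depth could not be judged, so a gene without a peak may hold p300 below the calling threshold.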
